A study of Mus musculus with 2 samples.

Results

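The proteasome is the protease that destroys proteins tagged with ubiquitin. Its genes were followed in E14 cells, a line of mouse embryonic stem cells (mESCs), after depletion of the deubiquitinase USP21. The members were chosen by symbol, as rows of the deposited tables whose name begins with Psm, a letter from a to g and a digit, without Psmd14. This gave 49 genes of 23889. The study holds 1 library of cells given a control shRNA (genotype label Normal) and 1 library of cells given an USP21 shRNA (genotype label USP21 knockdown). Both came from the same line, described in the labels as derived from 19/Ola mouse, grown without feeder cells on gelatin in serum with LIF, the cytokine that keeps mESCs undifferentiated. The cells were transfected and total RNA was taken after 3 days. Which of the USP21 shRNAs was used is not given in the labels, and both libraries are bulk RNA from cultures that may hold untransfected cells.

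The proteasome has a barrel-shaped core, built from alpha rings that gate the entrance and beta rings that carry the proteolytic sites. A regulatory particle caps the core. Its base contains a ring of ATPases that unfolds the substrate, and its lid removes the ubiquitin. Deubiquitinases such as USP21 act before this step, by removing ubiquitin from proteins. Cells of the immune system, and other cells under interferon, replace the catalytic beta subunits with alternative ones that favour peptides for antigen presentation.

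The values are FPKM, fragments scaled by transcript length and by the mapped fragments of the library, so levels of different genes can be set side by side. The difference between the libraries is given as log2((FPKM USP21 shRNA + 0.1)/(FPKM control shRNA + 0.1)), called the log2 ratio, which understates the change of low genes. With 1 library per group no difference has a replicate check and none was tested, so "lower" and "higher" compare 2 libraries and not 2 conditions. Differences of at least 0.25 and at least 0.5 on the log2 scale are counted as rules of size. Of the 49 members 46 reached an FPKM of 1 in at least one library, as did 11927 of all genes, and these are the genes counted. The other members were Psmb8, Psmb11 and Psme2b.

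Facts of the whole series bear on every value. The FPKM of Usp21 was 26.2 in control cells and 3.49 in knockdown cells, in the direction of the labels. All 8 genes listed as mESC markers were present, from 159 for Esrrb to 1849 for Dppa5a in the control library, with a median log2 ratio (defined above) of -0.26 and the lowest for Nanog, which had 467 and 258 (-0.86). Markers of other cell types were mixed. Of 6 fibroblast markers 1 passed the filter, Thy1, at 17.3 and 5.29, while Lum was listed at 0 in both libraries. Of 6 white blood cell markers 3 passed, the highest being Laptm5 at 113 and 85.9, while H2-Aa was listed at 0 and Ptprc had 0.0069 and 0.0090. From the step size of low values, the control library was 1.23 times as deep as the knockdown. The sum of all FPKM was 613617 for the control and 543206 for the knockdown. Setting these sums equal adds 0.18 to every log2 ratio and moves the median of all genes from 0.0031 to 0.18, so a ratio between -0.18 and 0 has no direction that holds under both scalings. Across all genes the log2 ratio was also higher for longer transcripts and lower for abundant ones, as described below for the members.

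The members were lower in the USP21 shRNA library more often than genes at large, but by little. The log2 ratio was at most -0.25 in 19 of 46 members, against 22.2% of all genes, and at least 0.25 in 1 member, against 24.1% of all genes. Of the 46, 34 were below 0, against 49.6% of all genes. The median log2 ratio was -0.17 over the members and 0.0031 over all genes. With equal summed FPKM the members' median was 0.0062 against 0.18, 22 of 46 were below 0 against 29.3% of all genes, 3 were at most -0.25 against 11.8%, and 5 were at least 0.25 (Psma8, Psmd7, Psmd9, Psmg2 and Psmg4) against 41.2%. Under that scaling members at least 0.25 higher thus outnumbered those at least 0.25 lower. The share of the members in all FPKM was 1.19% for the control and 1.16% for the knockdown. Their order was nearly the same in both (Spearman rho across 46 genes 0.98, a description of libraries that share gene lengths), and no member moved by more than 6 places.

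**Figure D1:**
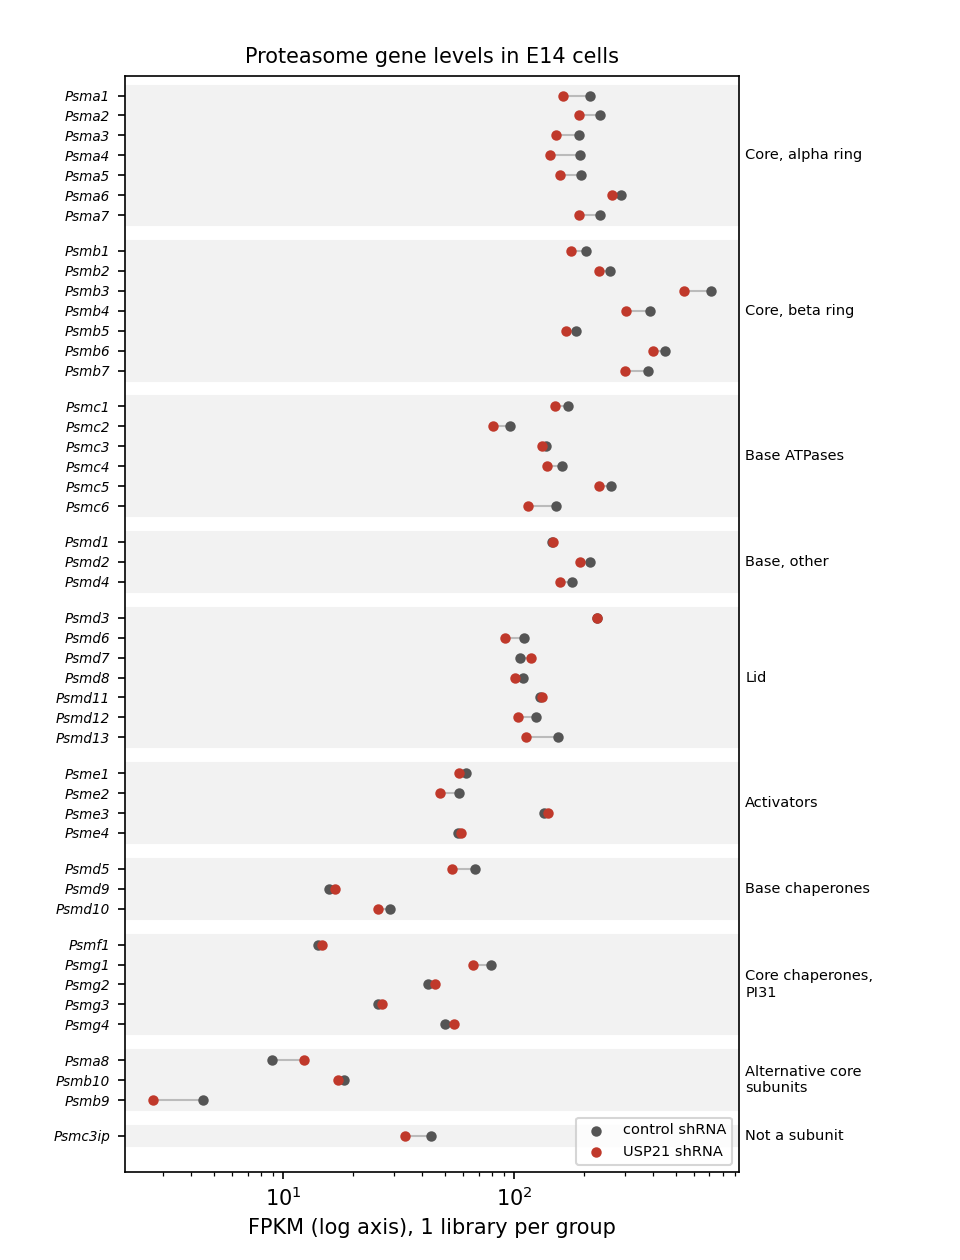
FPKM of the 46 members with at least 1 FPKM in at least one library, on a log axis, by subcomplex, with the control shRNA in grey and the USP21 shRNA in red (1 library each, no error bars). Core and regulatory particle genes lie between 80.8 and 713, and Psmb9 is the lowest gene plotted, at 4.47 and 2.72.

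Promoter sequences of 41 of the 49 members were found in RefSeq (GRCm38.p6), each from 250 bases before to 50 after a start site, and 38 of these members passed the filter. The letters of the antioxidant response element, TGACNNNGC, to which Nrf1 is known to bind, were searched on both strands. They were in the promoters of 6 members, 15.8% of those past the filter. This compares with 12.4% of all 32851 promoters and 17.2% of the 9000 genes past the filter with a promoter. The members holding it had a median log2 ratio of -0.16, against -0.24 for the others. These windows are shown because they set the core, base, lid and activator genes side by side. Each has 30 bases, read along the gene's strand, with the match in capitals. In Psmc6, Psmd12 and Psme4 the match is on the other strand, so the capitals are its reverse complement.
Psmb5 (chr14:54618024-54618053, minus strand): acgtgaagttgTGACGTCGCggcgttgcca
Psmb6 (chr11:70525337-70525366, plus strand): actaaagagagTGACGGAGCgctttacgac
Psmc6 (chr14:45329586-45329615, plus strand): gccagccagtaGCTAAGTCAggcattgctc
Psmd12 (chr11:107479278-107479307, plus strand): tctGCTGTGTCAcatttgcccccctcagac
Psmd9 (chr5:123228148-123228177, plus strand): tatctagccggTGACCCCGCccacttccaa
Psme4 (chr11:30771757-30771786, plus strand): gcgctgcggctGCAGCGTCAccagaagagc

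The ETS site CCGGAAG was another of 15 strings of letters counted on both strands. ETS factors are known to bind the promoters of many housekeeping genes. The site was in the promoters of 15 members, 39.5% of those past the filter with a promoter. This compares with 20.8% of all such genes and 8.86% of all promoters. Of these 15, 9 belong to the regulatory particle (Psmc1, Psmc2, Psmc6, Psmd2, Psmd4, Psmd6, Psmd11, Psmd12 and Psmd13) and 1, Psma6, to the core. The others include Psmc3ip, which is not a proteasome subunit. How many genes of each part had a promoter sequence was not counted, so these numbers do not compare the parts. The strings were chosen with the data known, and the difference in share between members and all genes was not tested. The median log2 ratio was -0.18 for members with the site and -0.22 for those without, which are close. The site stands in capitals in these windows of 3 genes with a log2 ratio of at most -0.25 and of Psmd4 (-0.16).
Psmc6 (chr14:45329712-45329741, plus strand): gaggcgggccagCCGGAAGgggcggagcca
Psmd6 (chr14:14120973-14121002, minus strand): ccagagacgcgaCCGGAAGtcagactggcg
Psmg1 (chr16:95991012-95991041, minus strand): tctcgcggcggaCCGGAAGctcttaggttc
Psmd4 (chr3:95042722-95042751, minus strand): cttacagctgttCCGGAAGctgctgcgaag

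The alpha ring genes were lower in the USP21 shRNA library in 7 of 7 cases, against 49.6% of all genes. These subunits form the outer rings that open and close the gate of the core. Psma1 had 213 FPKM in control and 163 in knockdown cells. Psma4 had 193 and 143, a log2 ratio of -0.43. Psma3 had 190 and 151, and Psma7 had 235 and 190. These 4 genes had log2 ratios from -0.43 to -0.31. Psma2 had 234 and 191. Psma5 had 194 and 157. Psma6, the highest of the ring, had 289 and 264, a log2 ratio of -0.13 that turned to 0.047 with equal summed FPKM. The median of the ring was -0.31, and 6 of 7 were at most -0.25, against 22.2% of all genes. This count was 4 of 7 after the correction for transcript length, against 20.6% of all genes. After the correction for level it was 1 of 7, against 22.1% of all genes. Both corrections are described below. The ring was narrow in level, with a coefficient of variation of 16.03% across the 7 genes in the control library and 23.1% in the other, while in the complex each subunit is present in equal number.

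The constitutive beta ring was lower in 7 of 7 cases as well, against 49.6% of all genes. Its median log2 ratio was -0.22, and 3 of 7 were at most -0.25, against 22.2% of all genes. After either correction 0 of 7 were at most -0.25, against 20.6% (length) and 22.1% (level) of all genes. Only 3 of the beta subunits cut the substrate. Psmb5, the subunit with chymotrypsin-like activity, had 185 FPKM in control and 167 in knockdown cells. Psmb6, the caspase-like subunit, had 451 and 400. Psmb7, the trypsin-like subunit, had 380 and 303. The log2 ratios were -0.15, -0.17 and -0.33, so only that of Psmb7 was past 0.25. The other beta subunits are structural. Psmb3 was the highest of all members, at 713 and 543, with a log2 ratio of -0.39. Psmb4 had 388 and 305 (log2 ratio -0.34). Psmb1 had 204 and 176, and Psmb2 had 261 and 233. Beta ring levels were spread more widely than alpha ring levels, with a coefficient of variation of 49.2% in the control library and 43.9% in the other. With equal summed FPKM 10 of the 14 core genes were still below 0, against 29.3% of all genes. Under that scaling 1 of the 14, Psma4, was at most -0.25, against 11.8% of all genes.

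The regulatory particle had more varied ratios than the core. Among the ATPases of the base, which pull the substrate into the core, Psmc6 stood lowest, with an FPKM of 152 in control and 115 in knockdown cells (log2 ratio -0.40). Psmc2 had 96.2 and 80.8 (-0.25). Psmc4 had 161 and 138, Psmc1 had 171 and 150, and Psmc5 had 261 and 233, with log2 ratios from -0.22 to -0.17. Psmc3 had 138 and 132, a log2 ratio of -0.055. All 6 ATPase genes were below 0 as deposited, against 49.6% of all genes, and 4 of 6 with equal summed FPKM, against 29.3%. Of the other base genes Psmd1, a large scaffold subunit, had 145 and 146. Psmd2, the scaffold that docks shuttle factors and Usp14, had 212 and 193. Psmd4, a ubiquitin receptor, had 177 and 158.

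The lid held both ends of the regulatory particle. Psmd13 had 154 FPKM in control and 113 in knockdown cells, a log2 ratio of -0.45, which was the lowest of the core and regulatory particle genes. Psmd7, the partner of the lid's deubiquitinase, had 106 and 119, a log2 ratio of 0.17, the highest of them. Psmd3 was equal in both libraries at 228. The remaining subunits are scaffold proteins of the lid. Psmd11 had 129 and 132. Psmd6 had 110 and 90.8, Psmd12 had 125 and 104, and Psmd8 had 109 and 100.4. The median log2 ratio of the lid was -0.12, and 3 of 7 genes were at most -0.25, against 22.2% of all genes. This count was 1 of 7 after the correction for length, against 20.6% of all genes, and 1 of 7 after that for level, against 22.1%. With equal summed FPKM the median of the lid was 0.055. The gene left out by the rule, Psmd14, which encodes the lid's deubiquitinase, had 88.3 and 83.3.

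Set against each other within a library, the core stood above the regulatory particle. The median FPKM of the 14 core genes was 1.58 times that of the 16 regulatory particle genes in the control and 1.44 times in the knockdown. This ratio does not depend on how the libraries are scaled. The median log2 ratio was -0.30 over the core (range -0.43 to -0.13) and -0.16 over the regulatory particle (range -0.45 to 0.17). The ranges overlap, and whether core and regulatory particle differ was not tested, since there are no replicates.

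**Figure D2:**
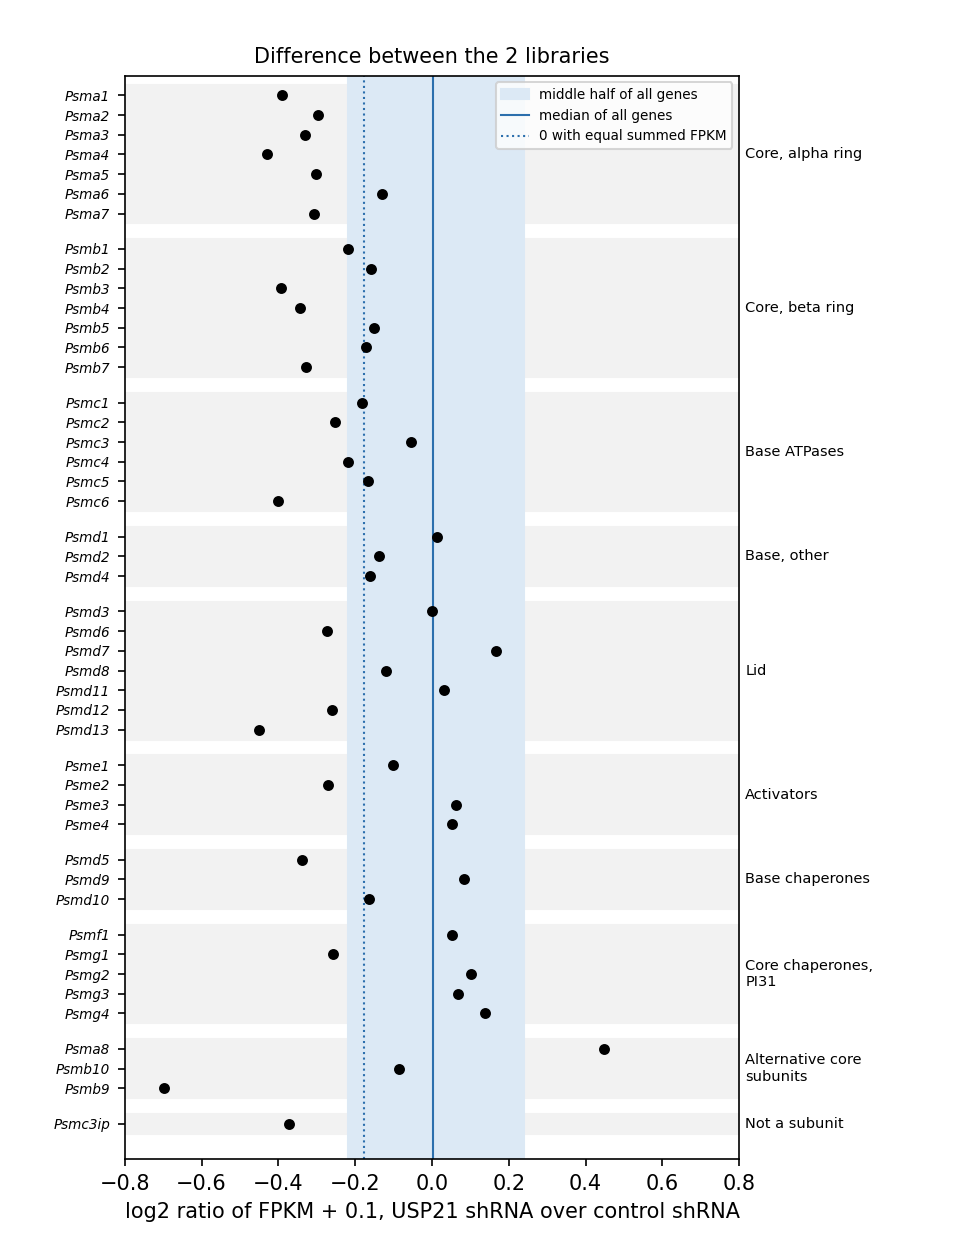
Log2 ratio of each member past the filter, by subcomplex (1 library per group). The shaded band is the interquartile range of all 11927 genes, -0.22 to 0.24, the solid line their median of 0.0031, and the dotted line at -0.18 marks where 0 would lie with equal summed FPKM. All 14 core genes lie left of the solid line, Psmb9 lies farthest left at -0.70 and Psma8 farthest right at 0.45.

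Activators, chaperones and the inhibitor lay around 0 as deposited. Psme1 and Psme2, which pair to form the interferon-inducible activator of the core, had FPKM values of 61.9 and 57.7 in control cells, and of 57.6 and 47.8 in knockdown cells. Their log2 ratios were -0.10 and -0.27. Psme3, the nuclear activator, had 134 and 140, and Psme4, the large single-chain activator, had 56.8 and 58.8. Psmf1, an inhibitor of the core in vitro, had 14.1 and 14.6. The genes Psmg1 to Psmg4 encode the chaperones that build the alpha ring. Psmg1 had 79.0 and 66.0, a log2 ratio of -0.26, while its partner Psmg2 had 42.1 and 45.1. Psmg3 had 25.6 and 26.8, and Psmg4 had 49.9 and 55.0 (0.14). The chaperones of the base were also of mixed sign. Psmd5 had 67.7 and 53.5 (-0.34), Psmd10 had 29.0 and 25.8, and Psmd9 had 15.8 and 16.7. Over these 12 genes the median log2 ratio was 0.052, and 3 were at most -0.25, against 22.2% of all genes. With equal summed FPKM their median was 0.23, against 0.18 for all genes. Psmc3ip, taken in by the symbol rule, is not a proteasome subunit but a factor of meiotic recombination. It had 43.4 and 33.5.

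The alternative subunits of the core were far below their constitutive partners. Psmb8, Psmb9 and Psmb10 replace Psmb5, Psmb6 and Psmb7 in the immunoproteasome. Psmb8 had 0.555 FPKM in control and 0.333 in knockdown cells, which is 0.299% and 0.199% of the Psmb5 level. Psmb9 had 4.47 and 2.72, or 0.991% and 0.679% of Psmb6. Psmb10 had 18.4 and 17.3, or 4.84% and 5.71% of Psmb7. Psmb9 and Psmb8 were therefore lower in the USP21 shRNA library in level and relative to their partners, and Psmb10 was not lower relative to its partner. Psmb9 had the lowest log2 ratio of the 46 members, -0.70, and was the 1 member at most -0.5, against 8.59% of all genes. Psmb8 had -0.60 but did not reach an FPKM of 1 in either library. Psmb11, the subunit of the thymus, was at 0.0145 and 0.0271. Psma8, the testis form of Psma7, was the 1 member at least 0.25 higher, with 8.96 and 12.3 (log2 ratio 0.45), while Psma7 was lower. Relative to Psma7 it went from 3.81% to 6.45%. The log2 ratio of Psma8 was past that of 87.8% of all genes.

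Psmb8 and Psmb9 lie beside the peptide transporter genes Tap1 and Tap2 in the major histocompatibility complex on chromosome 17. In GENCODE M21 (GRCm38) Psmb9 spans 34181987 to 34187764 on the minus strand, Tap1 34187553 to 34197225, Psmb8 34197721 to 34201454 and Tap2 34203527 to 34216321, these on the plus strand. The starts of Psmb9 and Tap1 overlap, and whether the library kept strand is not given in the sources used here. Tap1 had 4.59 FPKM in control and 4.05 in knockdown cells, and Tap2 had 1.06 and 0.535. Psmb9, Tap1 and Tap2 were below 0, as were 49.6% of genes past the filter. Tap2 passed the filter only through its control value, and Psmb8 did not pass it. The log2 ratio of Tap1 was -0.18 as deposited and -0.0053 with equal summed FPKM. Of the 12 antigen processing genes listed, 11 passed the filter, with a median log2 ratio of -0.078. B2m, the light chain of class I molecules, had 35.0 and 20.4 (-0.78), and H2-K1, a heavy chain, had 26.1 and 17.8 (-0.55). Tap2, B2m and H2-K1 were at most -0.5, against 8.59% of all genes, none was at least 0.5, against 10.1%, and Tapbp, a loading factor, had 12.2 and 15.1 (0.30). The highest of the list were Canx, which had 293 and 282, and Calr, which had 285 and 284.

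The letters of a STAT site (TTCNNNGAA), bound by STAT factors, only some of which carry the interferon signal, were searched on both strands. A match was in the promoters of Psmb8, the constitutive base gene Psmd2 and the chaperone Psmg1. The 2 of these past the filter are 5.26% of the 38 members past the filter with a promoter. The match was in 7.83% of the 9000 genes past the filter with a promoter and in 8.30% of all promoters. The interferon-stimulated response element, another of the 15 strings, matched the promoters of Psmb3, Psmd4, Psmd9, Psme1 and Psmg4, and not those of Psmb8, Psmb9 or Psmb10. The 5 genes matched are 13.2% of the members past the filter with a promoter, against 3.28% of all such genes. The strings were chosen with the data known and this difference was not tested. The median log2 ratio was -0.10 for members with the match and -0.25 for those without. The STAT letters are in capitals in this window of Psmb8 (GRCm38.p6), shown as the subunit with the lowest share of its partner.
Psmb8 (chr17:34198087-34198116, plus strand): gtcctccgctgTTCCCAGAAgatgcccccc

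Genes that answer interferon did not follow 1 direction. Of 13 listed, 6 passed the filter, 2 of them at most -0.25 and 2 at least 0.25, against 22.2% and 24.1% of all genes, with a median log2 ratio of 0.031. Ifitm3, a membrane protein that blocks viral entry, had 216 FPKM in control and 134 in knockdown cells (-0.69). Irf1, a transcription factor known to drive Psmb9 and Tap1, had 18.4 and 12.9 (-0.50). Bst2, a tether of viruses at the membrane, had 58.7 and 70.1 (0.26). Of the 6 markers listed for white blood cells, which carry the immunoproteasome, Ptprc and H2-Aa were at or near 0 in both libraries as given above, Cd74 had 1.51 and 1.83, Cd3e 1.70 and 2.72 (0.65), and Laptm5 113 and 85.9. Thy1 had a log2 ratio of -1.69. Their part in the values of Psmb8 and Psmb9 was not tested.

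**Figure D3:**
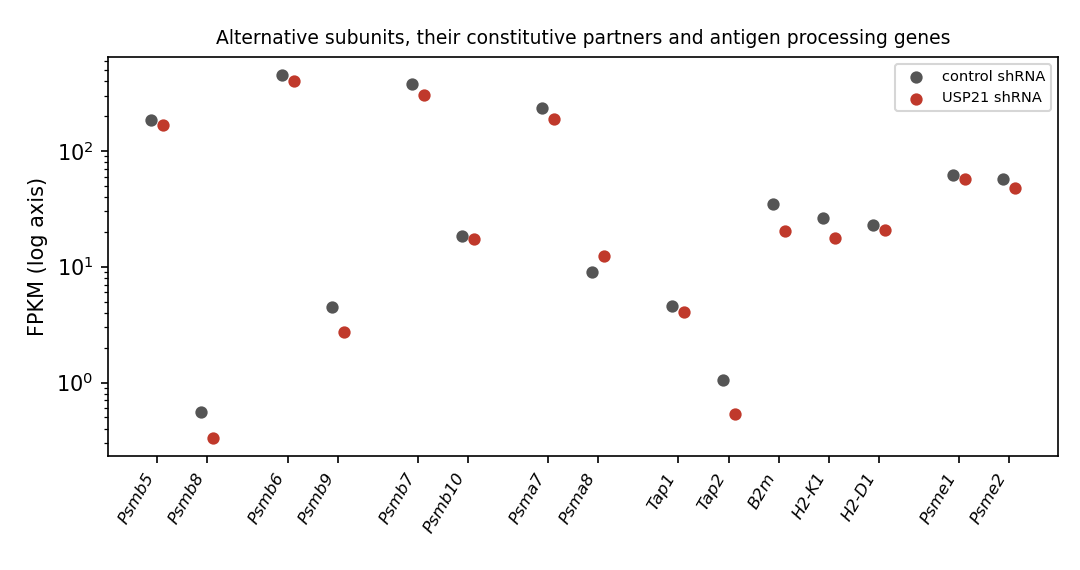
FPKM, on a log axis, of the alternative subunits beside their constitutive partners (Psmb8 with Psmb5, Psmb9 with Psmb6, Psmb10 with Psmb7, Psma8 with Psma7), of antigen processing genes and of the activator pair Psme1 and Psme2, with 1 library per group. Psmb8 stays below 1 in both libraries, while Psmb5 is at 185 and 167.

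Genes that work with the proteasome were also listed. Among 20 partners found in the files, all past the filter, 2 were at most -0.25, against 22.2% of all genes, and 3 at least 0.25, against 24.1%, so neither count was above that of genes at large. Their median log2 ratio was 0.0087. Pomp, the chaperone that matures the core, had 168 FPKM in control and 131 in knockdown cells (-0.36). Adrm1, a ubiquitin receptor of the base, had 162 and 147, and Uchl5, the deubiquitinase that binds it, had 84.3 and 67.6 (-0.32). The highest of the partners were Vcp, the segregase that extracts substrates, at 252 and 247, and Shfm1, a small lid subunit, at 242 and 208. Higher in the USP21 shRNA library were Ube3c, a ligase that extends chains at the proteasome (20.9 and 28.6, 0.45), Ubqln4, a shuttle factor (50.5 and 68.2, 0.43), and Zfand5, an activator of the proteasome (14.9 and 19.0, 0.35).

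Nfe2l1 encodes Nrf1, the transcription factor that raises proteasome genes when the protease falls short. It had 74.9 FPKM in control and 88.8 in knockdown cells, a log2 ratio of 0.25 that lies just short of the rule. Of the 15 genes listed for Nrf1 and its relative Nrf2, none was at most -0.25, against 22.2% of all genes. After the length correction 1 was, Keap1, against 20.6% of all genes. At least 0.25 were 6, against 24.1% of all genes, and the median was 0.18. Below 0 were 7, against 49.6% of all genes. These were Keap1 (-0.22), Gclc (-0.21), Nfe2l2 (-0.19), Nqo1 (-0.12), Txnrd1 (-0.097), Gclm (-0.079) and Maff (-0.058). Mafk, a small Maf partner, had 3.39 and 5.57 (0.70), Hmox1, heme oxygenase, had 52.0 and 75.6 (0.54), and Srxn1, sulfiredoxin, had 21.7 and 31.02 (0.51). These 3 were the genes of the list at least 0.5, against 10.1% of all genes. The highest of the list were Sqstm1, which had 121 and 138, and Txnrd1, which had 111 and 104.

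The ubiquitin supply was listed as well. The median log2 ratio of its 8 genes was 0.035, and none was at least 0.25, against 24.1% of all genes. At most -0.25 were 2, near the 22.2% of all genes. Of these 2, 1 is named. Rps27a, which encodes ubiquitin fused to a ribosomal protein, had 1886 FPKM in control and 1300.2 in knockdown cells (-0.54).

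Transcript length and level went along with the ratio over all genes, and the members are short and highly expressed. The median transcript of the members past the filter had 1408.5 bases, against 2906 for all genes past it. Across 11378 genes with a transcript in GENCODE M21 the Spearman rho of log2 ratio with length was 0.32, and across the 46 members it was 0.12 (both over genes of the same 2 libraries). Genes with transcripts of 878 to 1179 bases, where 10 members lie, had a median log2 ratio of -0.18. The 653 genes with a mean FPKM from 100.03 to 299 had a median of -0.15, and 26 members lie there. With the length trend removed by lowess the members' median was -0.091 and 9 of 46 were at most -0.25, against 20.6% of all genes. With the level trend removed it was -0.051 and 6 were at most -0.25, against 22.1%. These counts are 19.6% and 13.04% of the members, so neither share was above that of all genes. Psmd13 (-0.40 and -0.32), Psmc6 (-0.36 and -0.27), Psmd5 (-0.42 and -0.28), Psma4 (-0.29 and -0.28) and Psmb9 (-0.58 and -0.77) were past 0.25 under both, and so was Psmc3ip (-0.25 and -0.35). Psmd7 was at 0.25 and 0.28 and Psma8 at 0.53 and 0.39, the 2 members at least 0.25 higher under both, where 21.8% and 22.3% of all genes were. Of the catalytic subunits Psmb5 (0.046 and 0.00073) and Psmb6 (0.052 and 0.055) were at or just above 0, while Psmb7 (-0.18 and -0.12) was below 0.

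Other families of short, abundant transcripts showed the same sign. The 82 cytosolic ribosomal protein genes past the filter had a median log2 ratio of -0.41, and 77 genes of the respiratory chain had -0.30, against -0.17 for the proteasome members. After the length correction the medians were -0.22, -0.096 and -0.091, and after the level correction -0.076, -0.11 and -0.051. Whether these families differ from each other was not tested.

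**Figure D4:**
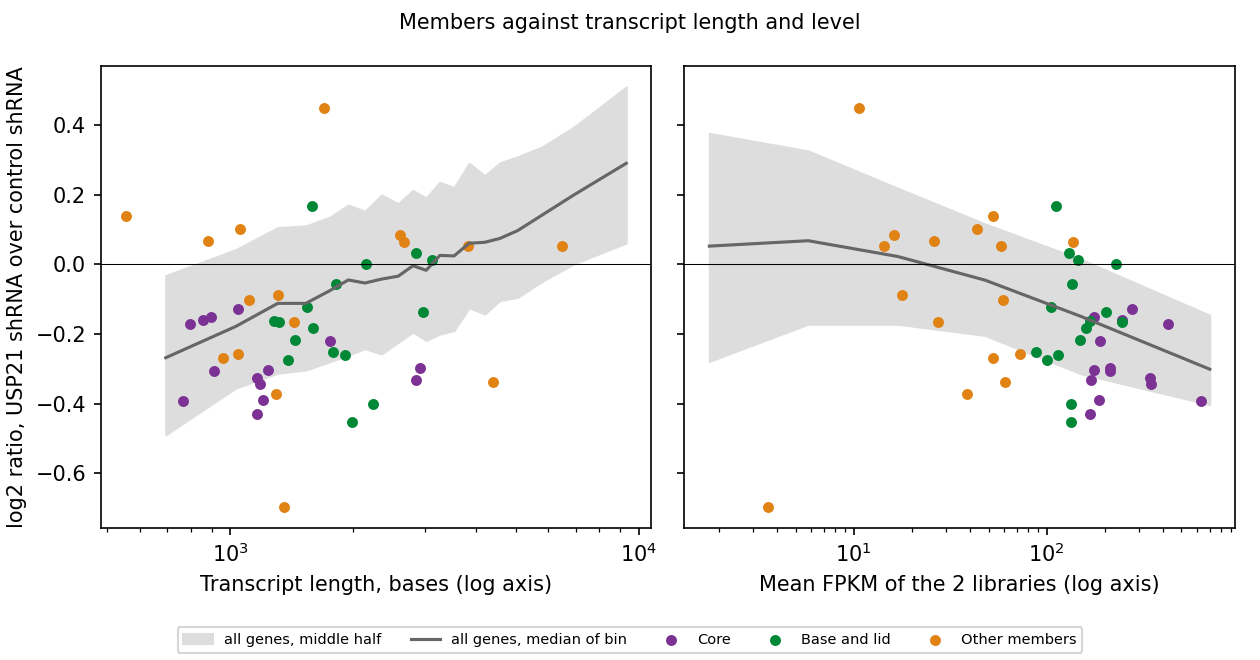
Log2 ratio of the 46 members against transcript length (left) and mean FPKM (right), both on log axes, with core genes in purple, base and lid genes in green and other members in orange. The grey line is the median of all genes in bins of length or level and the grey area their interquartile range. Psma8 at 0.45 and Psmb9 at -0.70 lie outside it in both panels.

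Some members share sequence with other annotated genes, and how fragments that match several places were assigned is not given in the sources used here. More than 60% of the 31-base words of the transcript also occur in another annotated gene for Psmb5 (74.0%), Psmb3 (66.8%), Psme2 (66.2%) and Psma5 (64.0%). Psmd2 shares 45.3%, Psmc1 39.7%, Psma4 38.9% and Psma3 27.1%. Psme2b, a copy of Psme2, shares 78.4% of its words and was listed at 0 with the control shRNA and at 0.0314 with the USP21 shRNA. Summed with it, Psme2 kept its log2 ratio of -0.27. The FPKM values of these genes are uncertain to that extent. Psmd13 and Psmc6, with the lowest log2 ratios of the regulatory particle, and Psmd7, with the highest, share 2.04%, 1.23% and 0% of their words.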

How the data were processed

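RNA-seq was made from E14 mESCs after 3 days of control or USP21 shRNA, with 1 library per group. The authors deposited FPKM values per gene symbol. Their processing notes name CASAVA 1.8.2, TopHat2 2.0.14, Cufflinks 2.2.1 and the mm9 build, without roles. No counts were used here, so the depth is unknown apart from the steps of low values, and no interval is given. A pseudocount of 0.1 was added before log2 ratios were taken, and genes that reached 1 FPKM in either library were counted. With 1 library per group no test was possible, and counts past 0.25 and 0.5 on the log2 scale are rules of size. The script was checked on simulated data. Lowess (span 0.3) on log10 transcript length (GENCODE M21, GRCm38) or on level gave corrected ratios. Other alternatives were pseudocounts of 0.01 and 1, no filter, a filter of 5, equal summed FPKM and a median of 0. Named were all members, Usp21, Nfe2l1, Pomp, Adrm1, and from each list the genes at least 0.5 in size and the 2 highest in FPKM. Other genes named (those past 0.25 where few were, the Nrf1 list genes below 0, Tap1, and markers at or near 0) were chosen after their values were seen. The members, lists and motifs were chosen with earlier results of these data known. Coordinates are from GRCm38 and not from the build of the deposited values. Members without a promoter in the RefSeq table, and protein sequences, were not used here. Some genes of the lists are counted but not reported here by name.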

Additional observations from a re-analysis of the deposited data

How the results depend on the processing

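No paired analysis was possible because each group has 1 library, and leaving out a library leaves no comparison. Equal summed FPKM adds 0.18 to each log2 ratio. It moved the median of the members to 0.0062, of the alpha ring to -0.13, the beta ring to -0.043, the base ATPases to -0.025, the other base genes to 0.039, the lid to 0.055, the activators to 0.15, the base chaperones to 0.0099, the core chaperones and inhibitor to 0.24 and the immunoproteasome subunits to -0.22. The lists moved to 0.18 (partners), 0.36 (Nrf1), 0.21 (ubiquitin), 0.084 (antigen processing), 0.20 (interferon), -0.089 (mESC markers), -1.52 (fibroblasts) and 0.43 (white blood cells). The fibroblast value is that of Thy1 alone, and that of white blood cells rests on 3 genes. The count of members at most -0.25 went from 19 to 3 with equal sums, 9 after the length correction and 6 after the level correction. The level correction was chosen after seeing the data. The shares of all genes were 22.2%, 11.8%, 20.6% and 22.1%. The count at least 0.25 went from 1 to 5, 5 and 2 under the same settings, against 24.1%, 41.2%, 21.8% and 22.3% of all genes. Without a filter it was 2. The level correction gave medians of -0.051 for the members, -0.15 for the alpha ring, -0.061 for the beta ring, -0.059 for the ATPases, 0.026 for the other base genes and -0.010 for the lid. The length correction gave -0.28 for the immunoproteasome, -0.062 for the base chaperones, 0.26 for the core chaperones and 0.36 for white blood cells. The immunoproteasome values of -0.22 and -0.28 rest on Psmb9 and Psmb10 only. Without a filter the immunoproteasome median was -0.60, the value of Psmb8. With a filter of 5 it was -0.087, the value of Psmb10 alone, and white blood cells had -0.39, the value of Laptm5 alone. With the pseudocount added, Psmb8 was 0.353% and 0.259% of Psmb5. Among members 12 changed sign with equal sums, 8 with the length and 7 with the level correction, 1 with the median at 0 and 0 under other pseudocounts or filters.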
